A study of Mus musculus with 4 samples.

Results

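The genes described here are those of glucose uptake, glycolysis, lactate production and export, and the entry of pyruvate into mitochondria. They are 35 listed mouse genes, found by NCBI gene ID in a table of 27179 genes, and all 35 had a row. The list was made by function, from known pathway membership, and was chosen with earlier results of these data known. Of these, 26 belong to the route from glucose transport to lactate transport and its regulators, and 9 to mitochondrial pyruvate entry.

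Glucose enters a cell through GLUT transporters, is trapped by hexokinase, and is split and oxidized to pyruvate, with a net yield of ATP that needs no oxygen. Lactate dehydrogenase turns pyruvate into lactate and restores the NAD+ that glycolysis consumes, and lactate leaves through monocarboxylate transporters. Several enzymes of this route are textbook targets of hypoxia-inducible factor (HIF), the transcription factor that is stabilized when oxygen is low, and many tumor cells run the route at a high rate even in oxygen.

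RNA was sequenced from MC38, a mouse colon carcinoma cell line labelled wild type, in a layout of oxygen by interferon gamma (IFN-γ). The 4 conditions were untreated control cells and IFN-γ-treated cells, each under normoxia or hypoxia. There was 1 library per condition, from 1 biological sample each, so no condition had a replicate. Hypoxia was 1.5% and normoxia 20% oxygen in the study's methods, which give 5 ng/mL IFN-γ for 24 h in most experiments and no length of hypoxia for these samples.

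Total counts were close to each other, from 34302971 to 34537939 per library. All 6 check genes of hypoxia (such as Car9 and Bnip3) rose with hypoxia and all 6 of IFN-γ (such as Irf1 and Gbp2) rose with IFN-γ, so the labels and the values went the same way. Of 10 epithelial markers, 4 (Epcam, Cdh1, Krt18 and Cdx2) had at most 3 counts in every library and none had 100 or more in all 4. The summed epithelial counts were 139 to 232, against 77620 to 85083 for 6 mesenchymal markers, which were mostly Vim. The summed counts of 5 leukocyte markers were 173 to 243 and those of 3 endothelial markers 26 to 50. By the edgeR test described below, 2 markers changed with IFN-γ: the epithelial Cdh17 rose (15 and 21 counts without and 62 and 120 with IFN-γ, under normoxia and hypoxia, adjusted p = 6.23e-10) and the mesenchymal Col3a1 fell by 0.39 on the log2 scale (adjusted p = 1.98e-07). The part of these markers in the results below was not tested.

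Changes with hypoxia and with IFN-γ were tested for all genes together in edgeR (quasi-likelihood F test, Benjamini-Hochberg adjustment over 13580 genes), with oxygen and IFN-γ as additive terms over the 4 libraries. Each gene leaves 1 residual degree of freedom, its departure from additivity. In this fit edgeR replaced the genes' own spreads by a trend over counts shared by all genes, with infinite prior degrees of freedom. The SE therefore follows a gene's counts and not its own departure, and variation between cultures was not measured. When TMM was replaced by the size factors of DESeq2, the prior degrees of freedom were 23.2, and the adjusted p of the 18 raised members other than Slc2a3 ran from 2.96e-16 to 0.00258 instead of 3.16e-135 to 0.000418, so how small the p-values below are depends on the setting. A gene is called raised or lowered at an adjusted p under 0.05. Ratios within a single pair of libraries carry 95% intervals that cover counting error only. In bulk RNA, more RNA per cell and more cells that express a gene cannot be told apart.

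Hypoxia raised most of the route from glucose to exported lactate. Of the 34 members tested, 19 rose (55.9%), against 8.23% of all genes tested, 1 fell (Pfkfb3), against 6.83%, and 14 did not pass the test. The median fitted log2 change was 0.35 over the members tested and 0.0047 over all genes tested. Since the members were chosen with earlier results of these data known, these shares are a description and not an independent comparison. In 18 of the 19 raised members both pairs of libraries gave an interval above 0, the exception being Slc2a3, and these 18 rose between 1.21- and 2.76-fold. Of 14 steps from uptake to lactate transport, with the bifunctional PFK-2/FBPase-2 enzymes counted as a step, 13 had a raised member, and those regulators were the one without.

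These transcripts also made up more of each hypoxic library. Together the 35 genes took 1.87% of all counts in the control normoxic library and 3.04% in the control hypoxic one. With IFN-γ the shares were 1.79% and 2.95%. Among the 10 genes with most counts there was 1 member, Pkm, in either normoxic library, and there were 3, Pkm, Ldha and Eno1, in either hypoxic library.

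**Figure D1:**
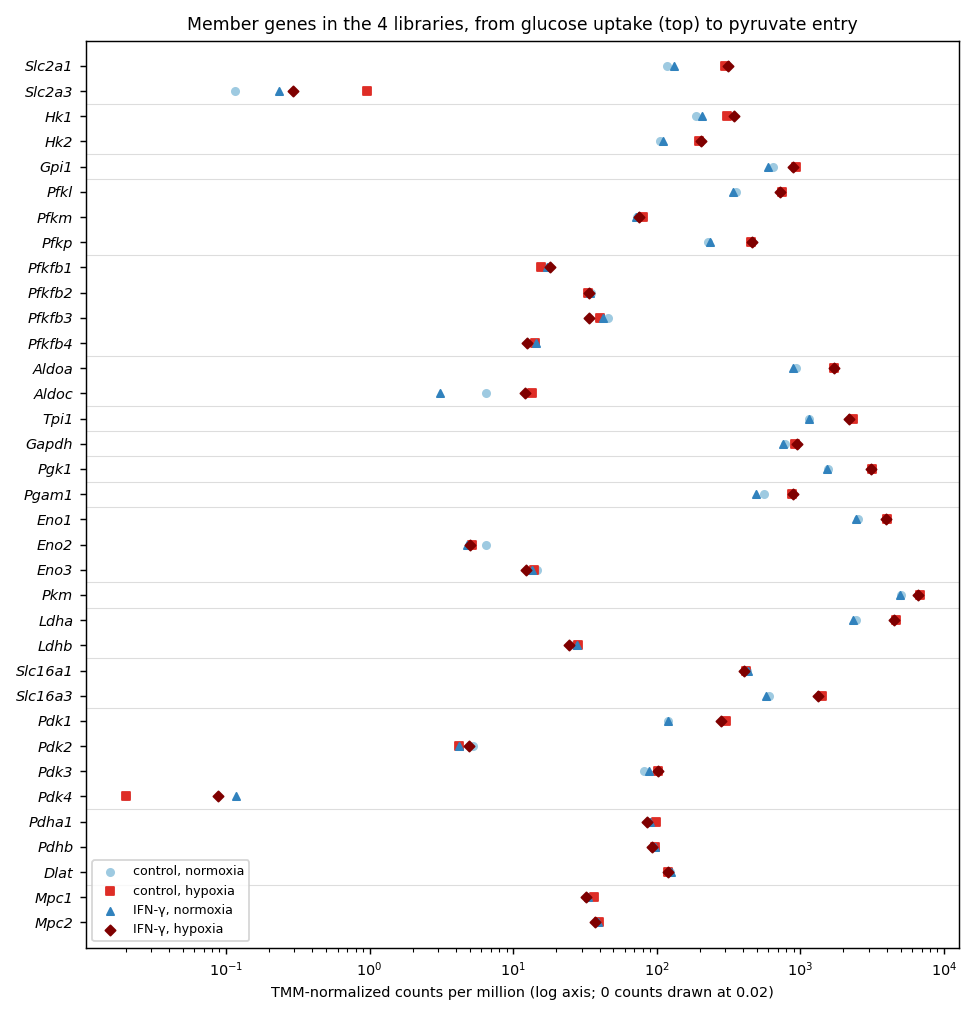
TMM-normalized CPM (counts scaled to library size) of the 35 member genes (log axis) in the 4 libraries, ordered from glucose uptake to mitochondrial pyruvate entry, with grey lines between steps. Both hypoxic libraries (red squares, dark red diamonds) sit to the right of both normoxic ones (blue) for most glycolytic enzymes, while Pfkfb1 to Pfkfb4, Ldhb, Slc16a1 and the pyruvate dehydrogenase subunits have the 4 symbols close together.

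The glucose transporter GLUT1, encoded by Slc2a1 (chr4:119108745-119137330, + strand, GRCm38.p6), was among the strongest responses. Slc2a1 had 4117 counts in the control normoxic library and 10281 in the control hypoxic one, and 4507 and 10833 with IFN-γ. Both hypoxic libraries were above both normoxic ones, and the fitted log2 change was 1.29 (SE 0.0566, edgeR adjusted p = 2.25e-110). By log2 change with hypoxia it had rank 26 among 11489 genes that averaged 50 counts or more per library.

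GLUT3, encoded by Slc2a3 and known for its high affinity for glucose, was nearly silent. Slc2a3 had 4 and 33 counts without IFN-γ, under normoxia and hypoxia, and 8 and 10 with it. The call of this gene (log2 change 1.74, SE 0.624, edgeR adjusted p = 0.039) rested on the control hypoxic library, since the ratio in the IFN-γ pair was 0.31 with an interval from -1.17 to 1.87. Slc2a1 held between 99.7% and 99.9% of the counts of the pair in every library.

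Both hexokinases, which trap glucose as glucose-6-phosphate, rose together. Hk1 had 6508 and 10667 counts without IFN-γ, under normoxia and hypoxia, and 7067 and 11876 with it, a log2 change of 0.73 (SE 0.0544, edgeR adjusted p = 1.08e-38). Hk2, the isoform usually named as the hypoxia-responsive one, had 3672 and 6827 counts without IFN-γ and 3801 and 6953 with it, a log2 change of 0.88 (SE 0.0588, edgeR adjusted p = 3.43e-48). The hypoxia change of Hk1 minus that of Hk2 was -0.18 in the control pair (interval -0.25 to -0.11) and -0.12 in the IFN-γ pair (-0.19 to -0.05). Hk2 thus gained slightly more in both pairs of these libraries. The intervals cover counting error only, so whether this small margin exceeds variation between cultures is not known. Hk1 remained the larger part of the hexokinase counts, at 63.9% and 61.0% without IFN-γ and 65.0% and 63.1% with it.

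Glucose-6-phosphate isomerase, Gpi1, had 22411 and 32105 counts without IFN-γ and 20622 and 30308 with it. Its log2 change was 0.54 (SE 0.0481, edgeR adjusted p = 8.97e-27), a smaller rise than that of the steps before and after it.

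Of the phosphofructokinases, which commit sugar to glycolysis, the liver type and the platelet type rose and the muscle type did not pass the test. Pfkl had 12441 and 25898 counts without IFN-γ and 11585 and 24773 with it, a log2 change of 1.08 (SE 0.0502, edgeR adjusted p = 7.65e-98). Pfkp had 7887 and 15717 counts without IFN-γ and 8126 and 15746 with it, a log2 change of 0.98 (SE 0.0526, edgeR adjusted p = 3.38e-73). Pfkm had 2535 and 2770 counts without IFN-γ and 2459 and 2585 with it, a log2 value of 0.10 (SE 0.0666, edgeR adjusted p = 0.34).

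The isoforms of this step therefore shifted against each other. The hypoxia change of Pfkl exceeded that of Pfkm by 0.93 in the control pair (interval 0.85 to 1.01) and by 1.02 in the IFN-γ pair (0.94 to 1.11). Per kilobase of merged exons, Pfkm made up 23.6% of phosphofructokinase in the control normoxic library and 14.1% in the control hypoxic one. With IFN-γ the Pfkm shares were 23.9% and 13.7%. Pfkl went from 58.0% to 66.0% and from 56.4% to 65.6% on the same scale. By counts without length, Pfkm held 11.1% and 6.2% in the control libraries. Whether Pfkm or Pfkp was higher in the control normoxic library depends on the scale. Per kilobase they held 23.6% and 18.3%, and by counts 11.1% and 34.5%. The fall in the Pfkm share appeared on either scale.

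The PFK-2/FBPase-2 enzymes set the level of fructose-2,6-bisphosphate, the main allosteric activator of phosphofructokinase. Pfkfb3 and Pfkfb4 are textbook hypoxia-induced genes, and neither rose in these libraries. Pfkfb3 had 1575 and 1389 counts without IFN-γ and 1446 and 1165 with it. It was the only member that fell with hypoxia, by 0.24 on the log2 scale (SE 0.0761, edgeR adjusted p = 0.0136), with both pairs below 0, at -0.18 and -0.31. In DESeq2 the same change had an adjusted p of 0.288.

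Pfkfb4 had 480 and 492 counts without IFN-γ and 494 and 428 with it, a log2 value of -0.08 (SE 0.108, edgeR adjusted p = 0.688). Pfkfb1, the isoform known from liver and muscle, had 547 and 541 counts without IFN-γ and 590 and 617 with it, a log2 value of 0.03 (SE 0.0998). Pfkfb2, known from heart, had 1205 and 1158 counts without IFN-γ and 1177 and 1151 with it, a log2 value of -0.04 (SE 0.0786). These regulators were the one step of the route in which no isoform was raised and none dominated. Per kilobase of merged exons each isoform held between 15.8% and 34.2% of the step in the 4 libraries.

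**Figure D2:**
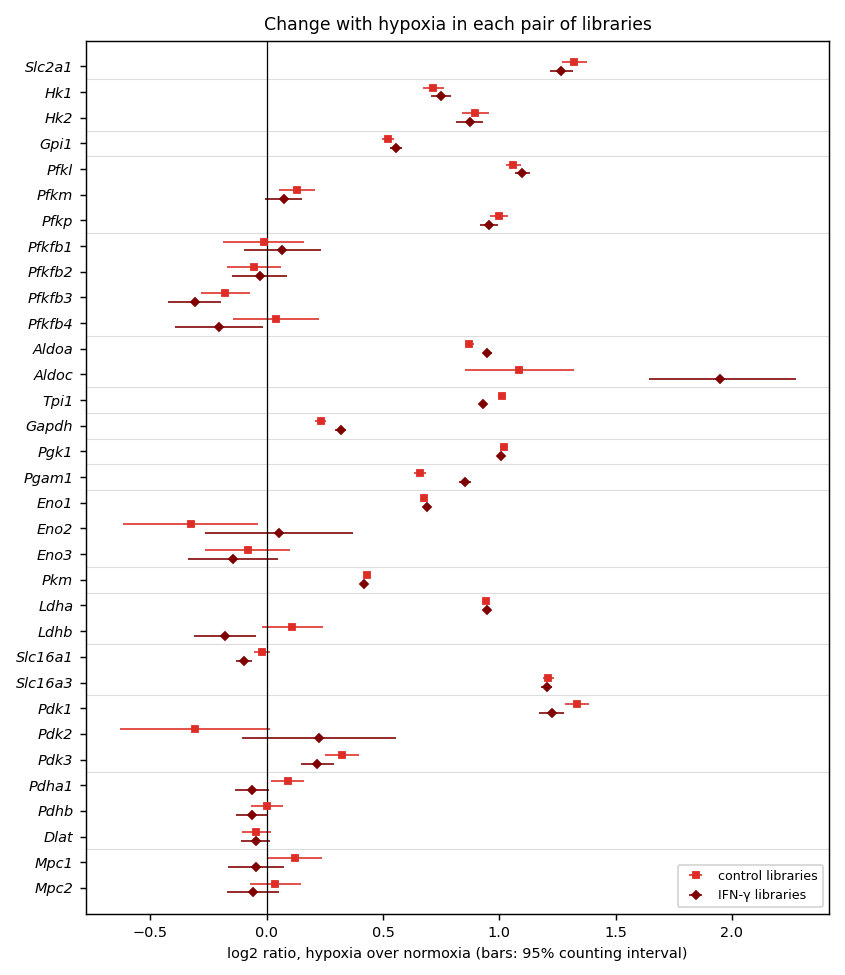
Log2 ratio of hypoxia over normoxia for 33 members in the control pair (red squares) and the IFN-γ pair (dark red diamonds), with 95% counting intervals, ordered by step; Slc2a3 and Pdk4 are left out for their low counts. Slc2a1, Slc16a3, Pdk1, Aldoc, Pfkl and Pgk1 lie above 1 in both pairs, Pfkfb3 lies below 0 in both, and Aldoc is the member whose pairs are farthest apart, at 1.08 and 1.95.

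Aldolase, which splits the 6-carbon sugar, rose in both isoforms at very different levels. Aldoa had 32612 and 59547 counts without IFN-γ and 30542 and 58869 with it, a log2 change of 0.91 (SE 0.046, edgeR adjusted p = 3.9e-83). Aldoc, the isoform known from brain, had 223 and 472 counts without IFN-γ and 107 and 414 with it. Its log2 change, 1.47 (SE 0.136, edgeR adjusted p = 1.21e-24), had rank 13 among the 11489 genes and was uneven, 1.08 in the control pair and 1.95 in the IFN-γ pair. Aldoa still held at least 99.2% of the aldolase counts in every library.

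The enzymes from triose phosphate to pyruvate are each dominated by 1 gene, and all of these genes rose. Tpi1, which interconverts the triose phosphates, had 40140 and 80845 counts without IFN-γ and 39622 and 75362 with it, a log2 change of 0.97 (SE 0.0449, edgeR adjusted p = 6.71e-99). Pgk1, the first enzyme of the route to yield ATP, had 54124 and 109516 counts without IFN-γ and 52784 and 106062 with it, a log2 change of 1.01 (SE 0.0437, edgeR adjusted p = 1.18e-113). Pgam1, which moves the phosphate within phosphoglycerate, had 19361 and 30500 counts without IFN-γ and 16991 and 30660 with it, a log2 change of 0.76 (SE 0.0486, edgeR adjusted p = 1.89e-51). These rises lay between 1.69- and 2.02-fold.

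Smaller rises were found for Gapdh, which acts between Tpi1 and Pgk1, and for Pkm, at the end of this stretch. Gapdh, the enzyme often used as a reference gene for expression, had 27314 and 32015 counts without IFN-γ and 26141 and 32538 with it. Its log2 change was 0.27 (SE 0.0475, edgeR adjusted p = 3.47e-07), or 1.21-fold, higher in both hypoxic libraries. Pkm, pyruvate kinase, was the member with most counts, 174469 and 235045 without IFN-γ and 169992 and 227191 with it, and its log2 change was 0.43 (SE 0.04, edgeR adjusted p = 3.91e-24). Counts per gene do not separate its M1 and M2 splice forms.

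Enolase, the last step before pyruvate kinase, rose in its ubiquitous isoform. Eno1 had 87278 and 139159 counts without IFN-γ and 84305 and 135689 with it, a log2 change of 0.68 (SE 0.0422, edgeR adjusted p = 1.96e-55). Eno2, the neuronal isoform and a known HIF target, had 225 and 179 counts without IFN-γ and 165 and 171 with it, a log2 value of -0.14 (SE 0.163, edgeR adjusted p = 0.632). Eno3, the muscle isoform, had 511 and 482 counts without IFN-γ and 468 and 423 with it, a log2 value of -0.11 (SE 0.108, edgeR adjusted p = 0.561). The hypoxia change of Eno1 exceeded that of Eno3 by 0.76 (interval 0.58 to 0.94) in the control pair and by 0.83 (0.64 to 1.02) in the IFN-γ pair.

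Several of these abundant genes share sequence with other annotated genes. The share of 31-base words found in another GENCODE M21 gene was 54.7% for Pgk1, 37.1% for Pgam1, 34.7% for Pkm, 33.0% for Ldhb, 28.5% for Eno1 and 27.2% for Gapdh, and below 20% for the other members. How reads that match several genes were counted is not given in the sources used here, so the levels of these 6 are uncertain. Without them 14 raised members were left. Adding the counts of the 2 close copies that have a row of their own, Gm12070 for Gapdh (792 to 1104 counts) and Eno1b for Eno1 (1017 to 1859), left the number of raised members at 19.

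At the step from pyruvate to lactate the pair of isoforms parted. Ldha, whose product favours lactate formation, had 84418 and 161768 counts without IFN-γ and 79817 and 153758 with it, a log2 change of 0.94 (SE 0.0421, edgeR adjusted p = 4.23e-106). Ldhb, which favours the return from lactate to pyruvate, had 914 and 985 counts without IFN-γ and 959 and 846 with it, a log2 value of -0.03 (SE 0.0836, edgeR adjusted p = 0.851). The hypoxia change of Ldha exceeded that of Ldhb by 0.83 (interval 0.70 to 0.96) in the control pair and by 1.13 (0.99 to 1.26) in the IFN-γ pair. Ldha was already 98.9% of the counts of the step in the control normoxic library (exact binomial interval 98.9% to 99.0%) and was 99.4% in the control hypoxic one.

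The monocarboxylate transporters parted in the same way. Slc16a3 encodes MCT4, the low-affinity transporter known for lactate export, and had 21073 and 48684 counts without IFN-γ and 19796 and 45561 with it. Its log2 change was 1.21 (SE 0.0475, edgeR adjusted p = 3.16e-135), with rank 39 among the 11489 genes. Slc16a1 encodes MCT1, the widely expressed transporter that works in both directions, and had 14646 and 14413 counts without IFN-γ and 14913 and 13922 with it, a log2 value of -0.06 (SE 0.051, edgeR adjusted p = 0.503).

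The 4 Slc16a1 libraries lay within a narrow range while both hypoxic Slc16a3 libraries stood above both normoxic ones. The hypoxia change of Slc16a3 exceeded that of Slc16a1 by 1.23 (interval 1.19 to 1.27) in the control pair and by 1.30 (1.26 to 1.34) in the IFN-γ pair. Slc16a1 thus made up 41.0% of the counts of the pair in the control normoxic library (exact binomial interval 40.5% to 41.5%) and 22.8% in the control hypoxic one (22.5% to 23.2%). With IFN-γ the shares were 43.0% and 23.4%. Per kilobase of merged exons they were 45.5% and 26.2% without IFN-γ and 47.5% and 26.9% with it.

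**Figure D3:**
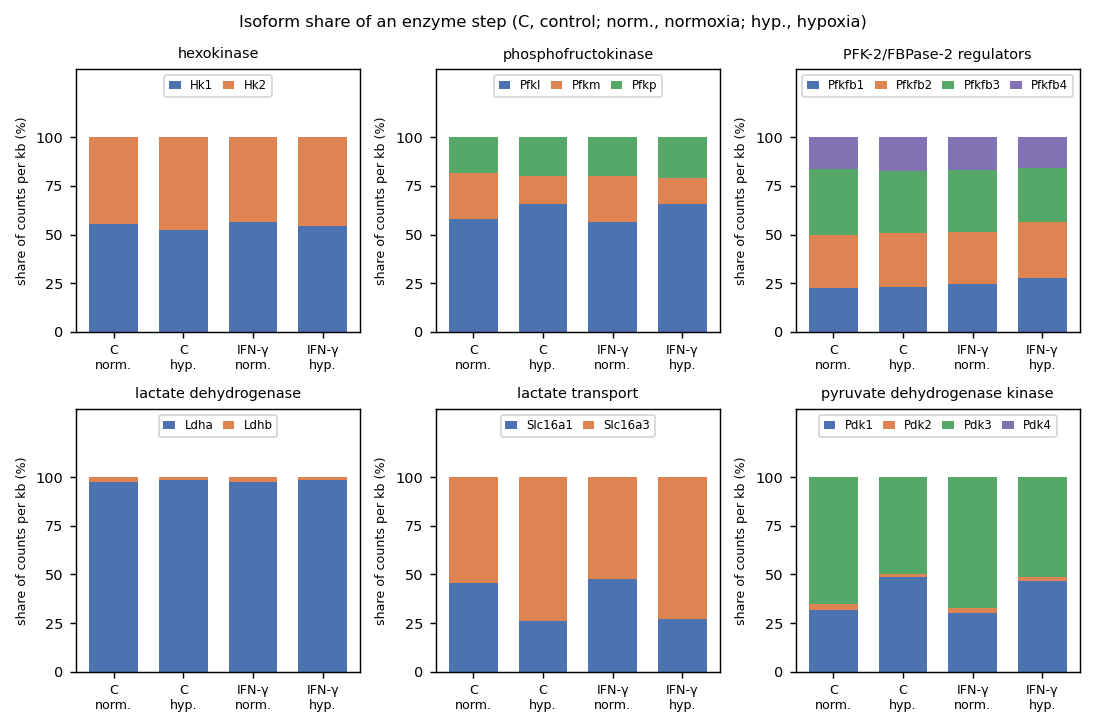
Share of each isoform (%, stacked bars) in the counts per kilobase of merged exons of its step, for 6 steps and 4 libraries (C, control). Slc16a3 takes 54.5% of lactate transport in the control normoxic library and 73.8% in the control hypoxic one. Between the same libraries Pdk1 goes from 31.5% to 48.5% of the pyruvate dehydrogenase kinases. The hexokinase bars change little, and Pfkfb3 takes 34.2% of the PFK-2/FBPase-2 step in the control normoxic library and 27.8% in the IFN-γ hypoxic one.

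The promoters of these isoform pairs are shown because the members in each pair moved differently under the same hypoxia, with Pgk1 and Gpi1 as raised members with and without the motif. The sequences are RefSeq reference stretches of GRCm38.p6, upstream of an annotated transcription start and in the direction of transcription. Their lengths, from 80 to 160 bases, and their distances from the start differ between genes, so they are not matched windows. Capitals mark ACGTG or GCGTG, the core of the HIF response element, on either strand, where the other strand reads as CACGT or CACGC. Where both strands overlap as CACGTG, the letters are also an E-box, the motif of Myc and related factors.
Slc16a3 (raised, chr11:120948967-120949066, + strand): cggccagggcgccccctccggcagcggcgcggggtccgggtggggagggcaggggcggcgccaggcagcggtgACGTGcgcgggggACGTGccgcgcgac
Slc16a1 (not called, chr3:104638454-104638553, + strand): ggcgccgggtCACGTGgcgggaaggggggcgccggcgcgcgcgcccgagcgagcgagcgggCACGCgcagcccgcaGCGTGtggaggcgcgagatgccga
Ldha (raised, chr7:46845644-46845803, + strand): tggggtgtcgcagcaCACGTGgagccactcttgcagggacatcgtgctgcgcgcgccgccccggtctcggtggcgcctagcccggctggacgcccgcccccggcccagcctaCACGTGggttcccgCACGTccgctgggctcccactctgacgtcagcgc
Ldhb (not called, chr6:142507958-142508117, - strand): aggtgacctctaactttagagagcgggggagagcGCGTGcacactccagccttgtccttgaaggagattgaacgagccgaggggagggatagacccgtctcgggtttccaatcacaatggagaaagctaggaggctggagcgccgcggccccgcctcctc
Pgk1 (raised, chrX:106186930-106187009, + strand): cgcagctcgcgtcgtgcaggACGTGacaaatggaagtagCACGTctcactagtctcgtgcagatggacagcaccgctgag
Gpi1 (raised, chr7:34230337-34230436, - strand): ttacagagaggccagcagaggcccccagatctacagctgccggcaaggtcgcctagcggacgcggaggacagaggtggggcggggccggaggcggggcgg

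The Slc16a3 stretch holds ACGTG at -27 and -14 from the start, the Ldha stretch at -144, -47 and, on the other strand, -34, and the Pgk1 stretch at -150 and, on the other strand, -131. The Gpi1 stretch holds neither motif, and Slc16a1, which was not called, holds the palindrome CACGTG at -200 with GCGTG nearby. The raised Ldha holds the same palindrome, starting at -145 and -48. The Ldhb stretch, of a gene not called, holds GCGTG at -126. The Ldha stretch lies inside the annotated gene before an internal start, with no GENCODE M21 exon in it. The Slc16a3 stretch overlaps an exon of a longer transcript by 14 bases, and the Gpi1 stretch an exon of Gm12762 by 17.

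Across the family the motif did not separate raised members from the others. Promoter windows were found for 34 of 35 members, all but Slc2a3. In the 250 bases upstream of at least 1 start, 16 of 18 raised members held ACGTG or GCGTG on either strand, the exceptions being Tpi1 and Gpi1. Of the 16 other members 14 held one, the exceptions being Dlat and Eno2. Among all 27025 genes with a window the share was 41.5%. ACGTG alone was found in 9 of 18 raised and 6 of 16 other members, against 18.5% of all genes. Genes with several starts have more windows and so more chances to hold a motif, and a match is only a match of letters.

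In the group of mitochondrial pyruvate entry, 2 of the kinases that inactivate pyruvate dehydrogenase rose. No pyruvate dehydrogenase subunit or carrier gene passed the test. Pdk1, which phosphorylates and inactivates pyruvate dehydrogenase, had 4176 and 10497 counts without IFN-γ and 4127 and 9636 with it, a log2 change of 1.28 (SE 0.057, edgeR adjusted p = 1.77e-106) and rank 28 among the 11489 genes. Pdk3 had 2843 and 3553 counts without IFN-γ and 3013 and 3499 with it, a smaller rise of 0.27 (SE 0.0635, edgeR adjusted p = 0.000418). Pdk2 had 181 and 146 counts without IFN-γ and 144 and 168 with it, a log2 value of -0.04 (SE 0.174, edgeR adjusted p = 0.909). Pdk4 was at 0 in both control libraries and at 4 and 3 counts with IFN-γ, under or near the 3 counts that a count of 0 allows, and was not tested.

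The hypoxia change of Pdk3 was 1.01 below that of Pdk1 in both pairs (written as Pdk3 minus Pdk1, -1.01 with an interval from -1.10 to -0.92 in either). Per kilobase of merged exons Pdk1 went from 31.5% to 48.5% of the step in the control libraries, and its shares in the IFN-γ libraries were 30.3% and 46.6%. Which of Pdk1 and Pdk3 was higher depends on the length used, since by counts without length Pdk1 held 58.0% already in the control normoxic library. The rise in the Pdk1 share appeared on either scale.

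The subunits of pyruvate dehydrogenase and the mitochondrial pyruvate carrier stayed within a narrow range. Pdha1 had between 2955 and 3414 counts and a log2 value of 0.01 (SE 0.0637), Pdhb between 3206 and 3376 and -0.03 (SE 0.0631), and Dlat between 4143 and 4298 and -0.05 (SE 0.0604). Mpc1 had between 1109 and 1261 counts and a log2 value of 0.04 (SE 0.0786), and Mpc2 between 1276 and 1367 and -0.01 (SE 0.0767). None of the 5 passed the test, and their edgeR adjusted p ran from 0.69 to 0.95. Mpc1 held 46.2% to 48.0% of the counts of the 2 carrier genes, with overlapping exact binomial intervals in the 4 libraries.

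With IFN-γ, few of these genes were called by the same test. No member was called raised, against 4.76% of all genes tested, and 1 was lowered, Aldoc, against 1.1%. Without adjustment 4 members had an edgeR p under 0.05 (Slc2a1, Hk1, Pfkfb3 and Aldoc), and DESeq2 called none. The median log2 value was -0.05 over the members and -0.01 over all genes tested. Without Aldoc and the sparse Slc2a3, the members' log2 values with IFN-γ lay between -0.25 (Eno2) and 0.16 (Pfkfb1).

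Aldoc fell by 0.51 on the log2 scale (SE 0.135, edgeR adjusted p = 0.00426). The fall was seen in the normoxic pair, 223 counts without and 107 with IFN-γ, a ratio of -1.04 with an interval from -1.39 to -0.71. In the hypoxic pair, 472 and 414 counts, the ratio was -0.18 and its interval, -0.37 to 0.02, held 0. The call was lost with DESeq2, with other size factors and with other filters, while the log2 value stayed between -0.58 and -0.49 in these settings and the edgeR adjusted p was 0.0556 to 0.132. Hk1 (log2 value 0.15, SE 0.0541, adjusted p = 0.0812) and Slc2a1 (0.12, SE 0.0559, adjusted p = 0.315) were a little higher with IFN-γ in both pairs and did not pass the test in edgeR.

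**Figure D4:**
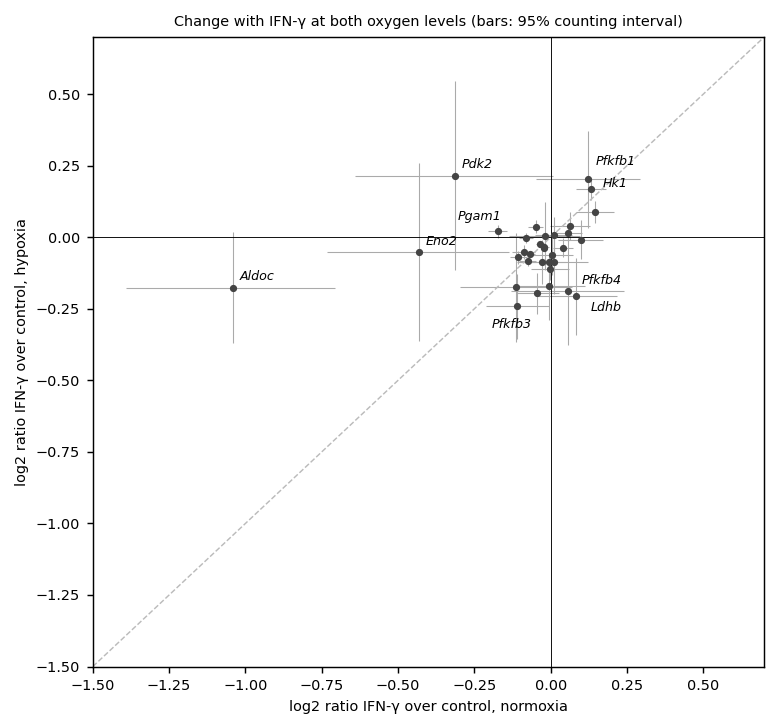
Log2 ratio of IFN-γ over control in the normoxic pair (x axis) and the hypoxic pair (y axis) for the 33 members with at least 100 counts in every library, with 95% counting intervals and the line of equal change (dashed). Most points lie close to 0 on both axes, and Aldoc stands apart at -1.04 under normoxia and -0.18 under hypoxia.

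Whether IFN-γ acted differently under hypoxia cannot be tested with 1 library per condition, so the difference of the IFN-γ changes is given with its counting interval. Among 33 members with at least 100 counts in every library, the interval left out 0 in 13 (39.4%), against 34.5% of all genes with such counts, so that share was near the background. The difference was higher under hypoxia in 6 and lower in 7. For 31 of the 33 it lay inside the central 95% of all such genes, from -0.36 to 0.40. Outside that range were Aldoc, at 0.87 (interval 0.48 to 1.25), and Pdk2, at 0.53 (0.08 to 0.98), both with few counts.

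Wider lists of neighbouring pathways, 110 genes that are no members, set these changes in context. They too were chosen with earlier results of these data known, so their shares are descriptive. Of 91 tested, 11 rose with hypoxia (12.1%, against 8.23% of all genes tested) and 3 fell (3.30%, against 6.83%), so the lists as a whole were near the background. Of 16 further isoforms and partners tested, Bsg, the chaperone that carries MCT1 and MCT4 to the membrane, rose by a log2 change of 0.60 (SE 0.0473, edgeR adjusted p = 3.23e-34), and Pgam5, a mitochondrial phosphatase, fell by 0.20 (SE 0.0623, edgeR adjusted p = 0.0141). Hk3, Pgk2, Pklr, Ldhc and Slc16a7, the isoforms known from liver, blood cells and testis among others, had at most 18 counts in any library.

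The glycogen and gluconeogenesis list had 5 of 12 tested genes raised (41.7%, against 8.23% of all genes tested) and none lowered (against 6.83%). Pgm1, which links glucose-6-phosphate to glycogen, rose by 1.21 (SE 0.058), Gys1, glycogen synthase, by 1.17 (SE 0.0581) and Gbe1, the branching enzyme, by 0.79 (SE 0.0729) on the log2 scale, with edgeR adjusted p of at most 5.74e-25. Fbp1 and Fbp2, the enzymes that oppose phosphofructokinase, had at most 2 counts. In the pentose phosphate list 1 of 10 rose, H6pd, by 0.26 (SE 0.0941, edgeR adjusted p = 0.0447), and Tkt fell with IFN-γ by 0.21 (SE 0.0523, edgeR adjusted p = 0.00134).

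The oxidative side moved little. Set against 8.23% raised and 6.83% lowered of all genes tested, of 17 TCA cycle genes tested none rose and Idh3b fell by 0.16 (SE 0.0595, edgeR adjusted p = 0.0482), and of 23 respiratory chain genes none rose and Cyc1 fell by 0.16 (SE 0.053, edgeR adjusted p = 0.022). The list medians were -0.06 and -0.04, against 0.0047 for all genes. Among 13 tested genes of oxygen sensing and glycolytic regulation, 4 rose, led by Egln1 at 1.38 (SE 0.0578) and Egln3 at 1.17 (SE 0.075), the prolyl hydroxylases that mark HIF for decay, followed by Mxi1 at 0.98 and Vhl at 0.57. Hif1a itself had 5326 and 5224 counts without IFN-γ and 5404 and 5094 with it, a log2 value of -0.05. Txnip, an inhibitor of glucose uptake, fell with IFN-γ by 0.25 (SE 0.0745, edgeR adjusted p = 0.0144).

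**Figure D5:**
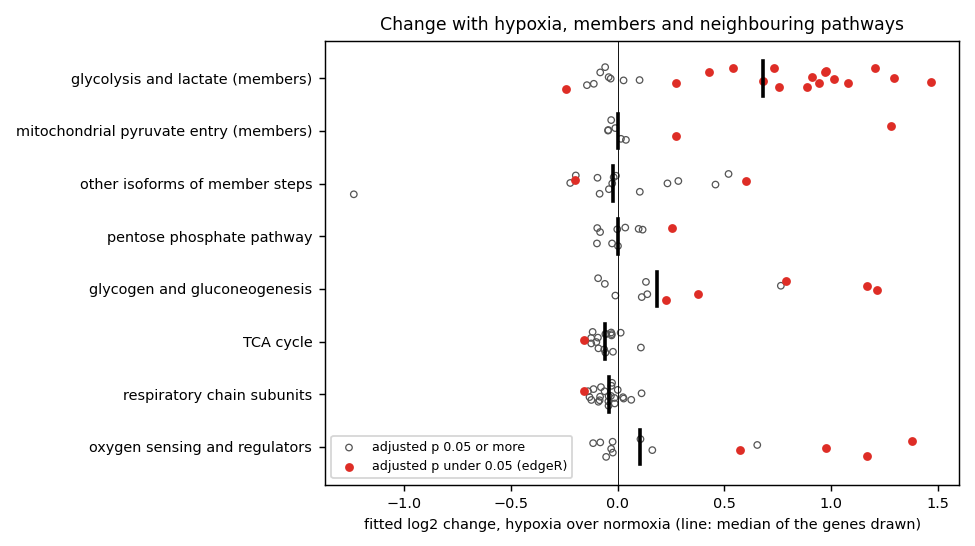
Fitted log2 change with hypoxia (x axis) for the members tested, in 2 groups and without the sparse Slc2a3, and for 6 lists of neighbouring pathways; each point is a gene, red where the edgeR adjusted p was under 0.05, and the vertical line is the median of the genes drawn. Rises gather in the glycolytic members, the glycogen list and the oxygen-sensing list, while the TCA cycle and respiratory chain genes lie around 0.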

How the data were processed

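Poly-A RNA of 4 MC38 libraries, 1 per condition, was sequenced from both ends with the strand kept. The table the authors deposited holds raw read counts for each gene, in whole numbers and not normalized, with a column per library. Reads were aligned with Hisat2 in the study's methods. The submitters' processing notes name featureCounts and mm10, and annotation, versions and the handling of reads that match several genes are not given in the sources used here. Symbols matched 25275 of 27179 gene IDs, and gene coordinates are those of RefSeq for GRCm38.p6.

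The counts were analysed in edgeR 4.0.16 (R 4.3.3) with TMM, its filter for low counts, an additive model and the quasi-likelihood test. The common dispersion estimated before the test was 0.00222, which is a coefficient of variation of 4.71%. The quasi-likelihood fit sets the spread of the test itself, so this value is not the spread behind the p-values. SE is the log2 change divided by the square root of F. Single pairs used TMM-normalized CPM with 0.5 counts added and Clopper-Pearson intervals. Levels between genes were divided by the length of merged GENCODE M21 exons. Genes with the same 31-base words were counted as sharing sequence. Libraries held 34302971 to 34537939 counts, and 3 counts, the most that a count of 0 allows, came to at most 0.0875 CPM. With 1 sample per condition, p-values rest on a trend of spread over counts, shared by all genes, and not on differences between cultures. This trend was taken from departures from additivity.

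All 35 members are named, with at most 4 genes per wider list and stimulus, those with the largest change among called genes with a mean of 50 counts, and list genes near 0 counts and Hif1a, chosen after their values were seen. The members and lists were chosen with earlier results of these data known. Alternatives were DESeq2 1.42.0 (test and size factors), total counts, other filters, a fit without the other stimulus, a minimum log2 change of 0.5, counts summed with copies, 5 counts added in single pairs, other gene lengths and, added after seeing the data, leaving out members with copies. Some genes of the wider lists are not reported here by name.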

Additional observations from a re-analysis of the deposited data

Results flagged for a closer look

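The change with IFN-γ had opposite signs at the 2 oxygen levels, with counting intervals that left out 0, in 2 members. Gapdh had a log2 ratio of -0.0492 in the normoxic pair and 0.0364 in the hypoxic pair. Slc16a1 had 0.0402 in the normoxic pair and -0.037 in the hypoxic pair. The difference was not tested, since each condition had 1 library.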

How the results depend on the processing

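Between 16 and 19 members were raised by hypoxia under the alternatives that kept all members, and all of those were among the 19. Slc2a3 lost its call with DESeq2 size factors (adjusted p = 0.0834), total counts, no filter and the fit of 2 libraries against 2, and could not be tested by DESeq2 or with at least 10 counts in every library. The other 18 kept their calls with other size factors, total counts and other filters in edgeR, with prior degrees of freedom of 16.5 to 23.2 and a highest adjusted p of 0.0103. Aldoc (adjusted p = 0.133) and Pdk3 (0.125) lost theirs in the fit of 2 against 2 in edgeR. The 1 member lowered by hypoxia, Pfkfb3, became 0 with DESeq2's test, with 2 against 2 and with a log2 change of at least 0.5. The 1 member lowered by IFN-γ, Aldoc, became 0 in 6 settings, which were DESeq2's test, its size factors, total counts, both filters and 2 against 2, with adjusted p from 0.0556 to 0.999. Of the wider genes, the 11 raised by hypoxia became 10 with other size factors, total counts and other filters in edgeR. They became 9 with DESeq2's test and 8 with 2 against 2. The 3 wider genes lowered by hypoxia became 0 with DESeq2's test and with 2 against 2. The 2 lowered by IFN-γ became 0 in the same settings and 1 with no filter. The median fitted change with hypoxia was 0.35. In the IFN-γ pair alone, with 5 counts added, the median was 0.267, which differs both in the measure and in the counts added. With 0.5 counts added, the middle members of that pair were Gapdh (0.317) and the sparse Slc2a3 (0.306, from 8 and 10 counts). The cause was not tested. No called change reversed. Of 14 members not called for hypoxia, 9 changed sign in some setting, all of them only in single pairs, and of 33 not called for IFN-γ, 12 did, 4 of them outside single pairs. Shares of isoforms moved with the gene length used (Hk1 in the control normoxic library 55.4%, 69.5% by longest transcript, 63.9% by counts). Without replicates, variation between cultures limits every comparison, and the members with fewest counts (Slc2a3, Aldoc, Eno2, Pdk2 and Pdk4) have the widest intervals.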
